A study of Mus musculus with 13 samples.

Results

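The immediate early genes are a small set of genes that cells transcribe within minutes of a growth signal, an injury or a stress, with no need for new protein synthesis. The 10 members described here were chosen by name and found in the expression table by their Entrez identifiers. All 10 of 10 were present among the 23366 genes of the table. They are the AP-1 subunits Fos, Fosb, Jun, Junb and Jund, the stress-induced partner of AP-1 Atf3, the zinc finger factor Egr1, the orphan nuclear receptor Nr4a1, the nuclear protein Ier2, and Dusp1, a phosphatase that removes the activating phosphates from MAP kinases.

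Whole pancreas was profiled by RNA sequencing, with 1 library per mouse, in 4 young mice (13 weeks), 5 old mice (55 weeks) and 4 old-OSKM mice. All 13 were female i4F-B animals, which carry a doxycycline-inducible cassette for the reprogramming factors Oct4, Sox2, Klf4 and c-Myc (OSKM) that is ubiquitous and inserted in the Pparg gene. The old-OSKM mice received doxycycline for 7 days and were then left without it for 2 weeks, so that their labelled age was 58 weeks. The young and old mice received no doxycycline, and doxycycline itself therefore cannot be told apart from the factors. The members were thus read 2 weeks after the end of induction.

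As background, Fos-family and Jun-family proteins pair through their leucine zippers to form AP-1. Jun proteins can also pair among themselves, whereas Fos proteins need a Jun partner. MAP kinases switch most of these genes on, through the serum response factor and CREB families at their promoters, and several products, such as Dusp1, then turn the signal down. In pancreas, Atf3, Egr1, Fos and Jun are known to be induced early in acinar cells during experimental pancreatitis.

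The promoters of Fos, Dusp1 and Jund are shown because Fos and Dusp1 were the members that varied most between mice of a group and Jund the one that varied least. Each sequence is the 250 bases before the annotated start of transcription, from RefSeq (GRCm38.p6), written 5′ to 3′ on the strand of the gene, with these stretches in capitals: TGACG, the core of a CRE, on either strand (its complement reads CGTCA), TGACGTCA, the full palindromic CRE, which contains TGACG on both strands, and TATAAA, the TATA box, on the strand of the gene. Fos lies at chr12:85473640-85473889 (plus strand), Dusp1 at chr17:26508473-26508722 (minus strand) and Jund at chr8:70697489-70697738 (plus strand).
Fos: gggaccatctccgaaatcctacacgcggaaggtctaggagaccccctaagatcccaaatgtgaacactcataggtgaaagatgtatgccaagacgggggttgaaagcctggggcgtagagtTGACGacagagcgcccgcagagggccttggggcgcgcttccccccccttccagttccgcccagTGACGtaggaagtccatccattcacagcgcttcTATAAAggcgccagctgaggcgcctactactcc
Dusp1: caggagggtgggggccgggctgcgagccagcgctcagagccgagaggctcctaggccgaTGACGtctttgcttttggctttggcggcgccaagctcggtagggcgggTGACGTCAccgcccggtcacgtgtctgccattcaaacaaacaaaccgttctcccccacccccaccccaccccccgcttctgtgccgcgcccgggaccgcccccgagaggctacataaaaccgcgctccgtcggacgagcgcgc
Jund: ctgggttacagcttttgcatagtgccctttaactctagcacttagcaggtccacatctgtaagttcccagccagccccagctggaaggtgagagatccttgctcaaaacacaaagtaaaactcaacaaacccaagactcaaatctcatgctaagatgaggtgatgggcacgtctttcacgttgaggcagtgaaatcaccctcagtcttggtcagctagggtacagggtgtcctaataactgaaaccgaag

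The Fos window held TGACG at positions -129 to -125 and -66 to -62, counted back from the start site, and TATAAA at -33 to -28. The Dusp1 window held TGACG at -191 to -187 and the full TGACGTCA at -143 to -136. The Jund window held none of these stretches, and neither did that of Jun. Sites with other letters, such as AP-1 sites, were not searched for. Windows were searched for 8 members (Fos, Fosb, Jun, Junb, Jund, Atf3, Nr4a1 and Dusp1), and not for Egr1 and Ier2. Of these 8, 6 held TGACG on either strand, against 17.8% of 32851 promoter windows of the same length. The full TGACGTCA was in Dusp1 alone of the 8 and in 1.55% of all windows, and TATAAA in Fos alone of the 8 and in 7.59% of all windows. A match of letters is a description of the sequence and not of binding.

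Values were deposited as log2 RPKM, a level per length of transcript and per number of reads, already set to nearly the same distribution in every mouse. Acinar genes marked the tissue as labelled: Ctrb1 stood at 11.11 and Cela2a at 11.00 log2 RPKM in all groups, at the top of the table. Both had the same value in every mouse, since values at the top are set by the common distribution. They therefore mark the tissue but do not measure its acinar content. The acinar correlations below use the other 10 of 12 acinar markers. The library of old-OSKM mouse 4 stood apart from the others. Over the 8410 genes with a mean above 0, its median distance from the median mouse was 0.277 log2 units, against 0.0583 to 0.112 in the other 12 mice, and its median correlation with the other mice was 0.895, against 0.960 to 0.982. It is included in what follows, and the differences, pairs and score of the members are also given without it. The spread of each member and the counts of other genes and markers between groups are not. The libraries of 3 mice (young mice 3 and 4 and old mouse 5) carried sample numbers 641 to 643, away from the numbers of the rest, and results are given without them where that matters. Read depth is not part of the values, so that counting error is unknown.

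Ordered by mean level over the 13 mice, Jund was the most abundant member, at 2.38 log2 RPKM, followed by Ier2 at 1.39 and Jun at 1.22. Egr1 (0.25), Dusp1 (0.15) and Junb (0.11) came next, then Nr4a1 (-0.39), Atf3 (-1.40), Fos (-1.82) and Fosb (-3.72). Jund exceeded Ier2, Jun exceeded Egr1, Junb exceeded Nr4a1 and Fos exceeded Fosb in 13 of 13 mice, and Nr4a1 exceeded Atf3 in 12 of 13. The other neighbours were not separated beyond their spread between mice, since Ier2 exceeded Jun in 9 mice, Egr1 exceeded Dusp1 in 8, Dusp1 exceeded Junb in 7 and Atf3 exceeded Fos in 9. Fosb was close to undetected, with 5 of 13 mice within 0.1 of its lowest value.

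**Figure D1:**
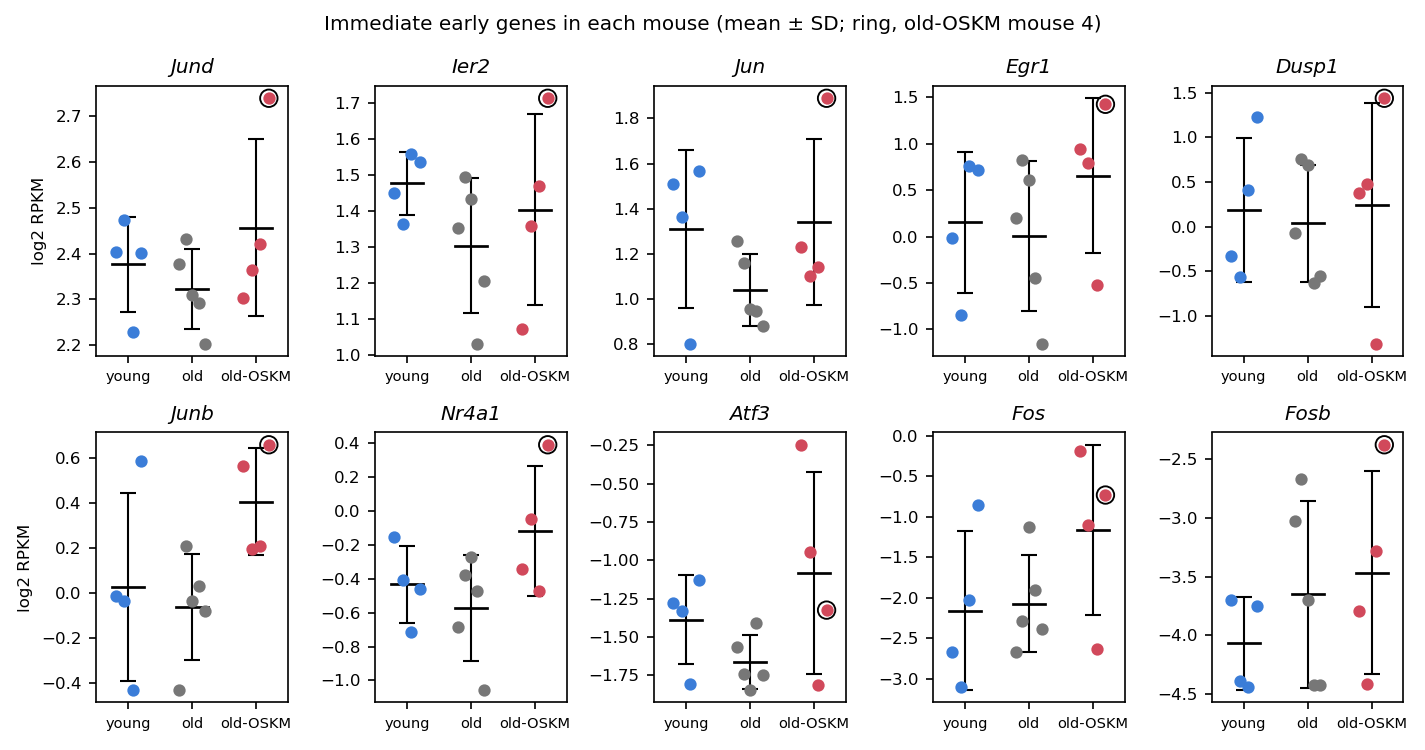
Level of each member in each mouse (y axis, log2 RPKM, a separate linear scale per gene) by group (x axis), with the group mean (horizontal bar) and SD (whiskers), and a ring around old-OSKM mouse 4. The groups overlap for every member, and the ringed mouse is the highest of 13 in 8 of the 10 panels, all but Atf3 and Fos.

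Among the Fos-family subunits, which need a Jun partner to bind DNA, Fos stood at -2.67, -3.10, -2.02 and -0.85 log2 RPKM in the young mice. It stood at -2.67, -2.28, -1.13, -1.90 and -2.39 in the old mice and at -0.18, -1.10, -2.63 and -0.73 in the old-OSKM mice. Of the 4 old-OSKM mice, 3 were above every old mouse, but old-OSKM mouse 3 was near the bottom of all 13, and young mouse 4 was as high as the treated ones.
Fosb, the second Fos-family subunit, lay between -4.44 and -3.70 in young, between -4.42 and -2.67 in old and between -4.41 and -2.38 in old-OSKM mice. The highest Fosb values were those of old-OSKM mouse 4 and of old mouse 2 (-2.67), and the ranges overlapped almost completely.

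Among the Jun-family subunits, Jun, the strongest activator of the family, stood at 1.51, 1.36, 0.80 and 1.57 log2 RPKM in young, at 1.26, 1.16, 0.96, 0.95 and 0.88 in old and at 1.23, 1.10, 1.14 and 1.89 in old-OSKM mice. The value of old-OSKM mouse 4 was set off from the other 3 of its group, which lay within the range of the old mice. Junb, which can oppose Jun at some targets, stood at -0.01, -0.03, -0.43 and 0.59 in young, at -0.43, 0.21, -0.03, 0.03 and -0.08 in old and at 0.56, 0.19, 0.21 and 0.66 in old-OSKM mice. Of the 4 old-OSKM mice, 3 were above every old mouse, but old-OSKM mouse 3 (0.210) barely passed old mouse 2 (0.208). Old-OSKM mouse 2 (0.19) was above all but old mouse 2, while young mouse 4 was between the upper pair of treated mice.
Jund, the subunit that is present in most resting cells, spanned only 2.20 to 2.74 over the 13 mice, with old-OSKM mouse 4 highest (2.74) and the next mouse at 2.47.

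Atf3, a stress-induced factor that pairs with Jun proteins, stood at -1.28, -1.33, -1.81 and -1.13 log2 RPKM in young, at -1.56, -1.74, -1.85, -1.41 and -1.75 in old and at -0.25, -0.94, -1.81 and -1.32 in old-OSKM mice. Old-OSKM mice 1, 2 and 4 exceeded every old mouse, while old-OSKM mouse 3 was close to the lowest of all 13. Atf3 was thus the member in which old-OSKM mouse 4 was unremarkable and old-OSKM mouse 1 led.
Egr1, a growth and injury factor, stood at -0.02, -0.85, 0.76 and 0.72 in young, at 0.20, 0.82, 0.61, -0.44 and -1.15 in old and at 0.94, 0.79, -0.52 and 1.42 in old-OSKM mice. Each group held both high and low mice for Egr1. Its SD inside a group (0.76 in young, 0.81 in old and 0.83 in old-OSKM mice) was wider than any distance between the group means (0.15, 0.01 and 0.66). Nr4a1, an orphan receptor also known as Nur77, stood at -0.16, -0.41, -0.71 and -0.46 in young, at -0.69, -0.38, -0.27, -0.47 and -1.06 in old and at -0.34, -0.05, -0.47 and 0.39 in old-OSKM mice. The highest Nr4a1 values belonged to old-OSKM mice 4 and 2.

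Ier2, whose product acts in the nucleus in early responses, lay between 1.36 and 1.56 log2 RPKM in young, between 1.03 and 1.49 in old and between 1.07 and 1.71 in old-OSKM mice, with old-OSKM mouse 1 second lowest and mouse 4 highest. Dusp1, the feedback phosphatase, stood at -0.33, -0.56, 0.41 and 1.23 in young, at -0.07, 0.75, 0.69, -0.63 and -0.55 in old and at 0.37, 0.48, -1.31 and 1.44 in old-OSKM mice. The old-OSKM mice thus held both the highest and the lowest Dusp1 level of the 13.

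The first comparison asked whether the members differed between untreated old and young pancreas. A gene was called when its fold change exceeded 1.5 and its raw p was under 0.01 in a limma fit over all 13 mice. No member was called between old and young mice (0 of 10, against 0.886% of all genes), and none reached a raw p under 0.05 (0 of 10, against 5.52% of all genes, Benjamini-Hochberg adjusted p = 1 for each). In no member were the 2 groups free of overlap, against 2.71% of all genes. The mean was lower in old mice for 8 of 10 members, with a median difference of -0.14 on the log2 scale, while 54.4% of all genes had a higher mean in old mice.

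The differences with age were closely bounded for the steady members and poorly for the variable ones. Jund differed by -0.05 ± 0.09 (SE, log2, old minus young), with a 95% interval of -0.25 to 0.14. Jun differed by -0.27 ± 0.19 (interval -0.68 to 0.14), and 3 of the 4 young mice were above every old mouse. For Egr1 the difference was -0.15 ± 0.50 and its interval reached from 0.421-fold to 1.94-fold. For Dusp1 it was -0.15 ± 0.55, and the interval reached from 0.392-fold to 2.07-fold. Without the libraries numbered 641 to 643, both differences turned to the other side, to 0.73 for Egr1 and 0.63 for Dusp1.

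The second comparison asked whether the members differed in old mice after the OSKM cycle. No member was called between old-OSKM and old mice (0 of 10, against 0.753% of all genes). The mean was higher in old-OSKM mice for 10 of 10 members, with a median log2 difference of 0.38, while 36.9% of all genes were higher in old-OSKM mice and the median of all genes was -0.04. A raw p under 0.05 was reached by 3 members, all higher in old-OSKM mice (3 of 10, against 8.07% of all genes in either direction and 3.98% in this direction). The groups overlapped in all 10 members, while they did not in 1.73% of all genes. The members are not independent of each other, since several varied together between mice, so that 10 in the same direction are not 10 separate results.

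Junb was higher by 0.47 ± 0.19 on the log2 scale (SE, 95% interval 0.05 to 0.89, 1.38-fold, adjusted p = 0.547 in the limma fit). Nr4a1 was higher by 0.45 ± 0.20 (interval 0.02 to 0.89, 1.37-fold, limma adjusted p = 0.547). Atf3 was higher by 0.58 ± 0.26 (interval 0.01 to 1.15, 1.49-fold, limma adjusted p = 0.547). None of the 3 passed the adjustment over all genes. In the exact two-sided permutation test of each gene alone, 5 against 4 mice, for which the smallest possible p is 0.00794, Junb gave p = 0.0238, Atf3 p = 0.0714 and Nr4a1 p = 0.0952.

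Fos showed the widest distance, 0.91 ± 0.55 (1.88-fold, interval -0.29 to 2.11), with 3 of 4 old-OSKM mice above every old mouse. Egr1 differed by 0.65 ± 0.50 (interval -0.45 to 1.75) and Jun by 0.30 ± 0.19 (interval -0.11 to 0.71). The remaining 4 differed by 0.10 (Ier2) to 0.21 (Dusp1), each with a 95% interval that included 0.

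This pattern rested in part on old-OSKM mouse 4, the library that stood apart. Without it, 7 of 10 members were higher in old-OSKM than in old mice, against 37.2% of all genes, with Fosb at -0.18, Dusp1 at -0.19 and Ier2 at -0.0034. Atf3 alone then kept a raw p under 0.05 (0.66 ± 0.29, limma adjusted p = 0.788), against 1456 of all 23366 genes. Without it, Junb differed by 0.38 ± 0.21 and Nr4a1 by 0.28 ± 0.18. Counted by mouse, 7, 9, 6 and 10 of the 10 members were above the old mean in old-OSKM mice 1, 2, 3 and 4.
Leaving out old-OSKM mouse 3, the lowest of its group in Fos, Egr1, Atf3, Nr4a1 and Dusp1, moved the comparison the other way. Atf3 was then called (0.82 ± 0.23, limma adjusted p = 0.179), and Fos (1.40 ± 0.50, limma adjusted p = 0.226), Nr4a1 and Junb had a raw p under 0.05. Of all 23366 genes, 284 were then called and 3849 had a raw p under 0.05, against 176 and 1885 with all mice. Without old-OSKM mouse 1, Nr4a1 alone had a raw p under 0.05, and without old-OSKM mouse 2, Junb alone. The call of Atf3 and the side of the raw threshold of Fos, Junb, Nr4a1 and Atf3 thus changed with the treated mice in the fit.

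**Figure D2:**
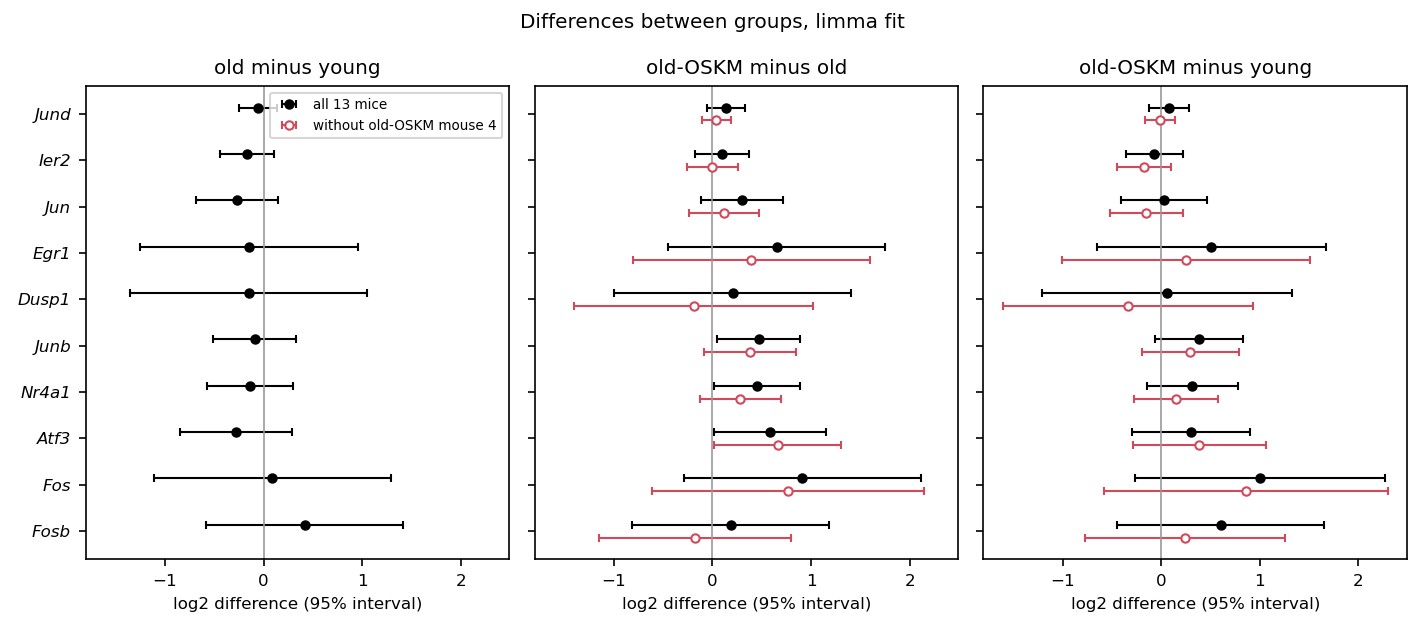
Log2 difference between groups for each member (x axis, point) with its 95% interval from the limma fit (whiskers), with all 13 mice (black) and without old-OSKM mouse 4 (open, red). In old-OSKM minus old all 10 black points lie above 0 and the intervals of Junb, Nr4a1 and Atf3 exclude 0, while without the mouse 7 of 10 are above 0 and only the interval of Atf3 excludes it.

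The third comparison set old-OSKM against young mice, and shares its old-OSKM mice with the second. No member was called (0 of 10, against 0.625% of all genes) and none had a raw p under 0.05 (0 of 10, against 5.07%). No member had groups free of overlap, against 1.90% of all genes. The mean was higher in old-OSKM mice for 9 of 10 members, Ier2 being the exception (-0.07 ± 0.13), against 38.7% of all genes, and the median difference was 0.31. Fos differed by 1.00 ± 0.58 (interval -0.27 to 2.27) and Junb by 0.38 ± 0.20. Without the libraries numbered 641 to 643, the difference in Fos was 1.72 ± 0.65 and its raw p was under 0.05 (limma adjusted p = 0.716), and without old-OSKM mice 1 and 4 it was 0.29. Fos and Junb (0.57 ± 0.17) had a raw p under 0.05 without young mouse 4 (limma adjusted p = 0.632 for each), and Fos and Atf3 without old-OSKM mouse 3, and no member was called in any of these fits. Of all 23366 genes, 1184 had such a p with all mice and 1095 without the libraries numbered 641 to 643. The count was 1410 without young mouse 4 and 2909 without old-OSKM mouse 3. Without old-OSKM mouse 4, 6 of 10 members were higher.

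The members differed from each other in how much they varied between mice of the same group. Within groups, the SD was 0.87 log2 units for Dusp1 and for Fos, 0.80 for Egr1 and 0.72 for Fosb. It was 0.41 for Atf3, 0.31 for Nr4a1, 0.30 for Junb and for Jun, 0.19 for Ier2 and 0.13 for Jund. From the lowest to the highest of 13 mice, the RPKM of Fos spanned 7.54-fold, that of Dusp1 6.73-fold and that of Egr1 5.97-fold, against 1.45-fold for Jund.

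Because the spread of a gene changes with its level, each member was set beside the genes whose mean level lay within 0.5 log2 units of its own. Dusp1 varied more than 99.7% of 3371 such genes, Egr1 more than 99.4% of 3406, Fos more than 98.1% of 2197 and Fosb more than 95.9% of 3509. The genes around Fosb, at the low end of the table, had a median SD of only 0.204, against 0.414 around Fos, so that many of them barely varied and the place of Fosb says less than that of the others. Jun stood at the 90.1 percentile. Junb (79.5), Nr4a1 (74.5), Ier2 (72.5) and Atf3 (60.7) were nearer to the middle, and Jund, at the 50.4 percentile, varied like the ordinary gene of its level. The members thus ran from among the most variable genes of the pancreas to an average one.

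**Figure D3:**
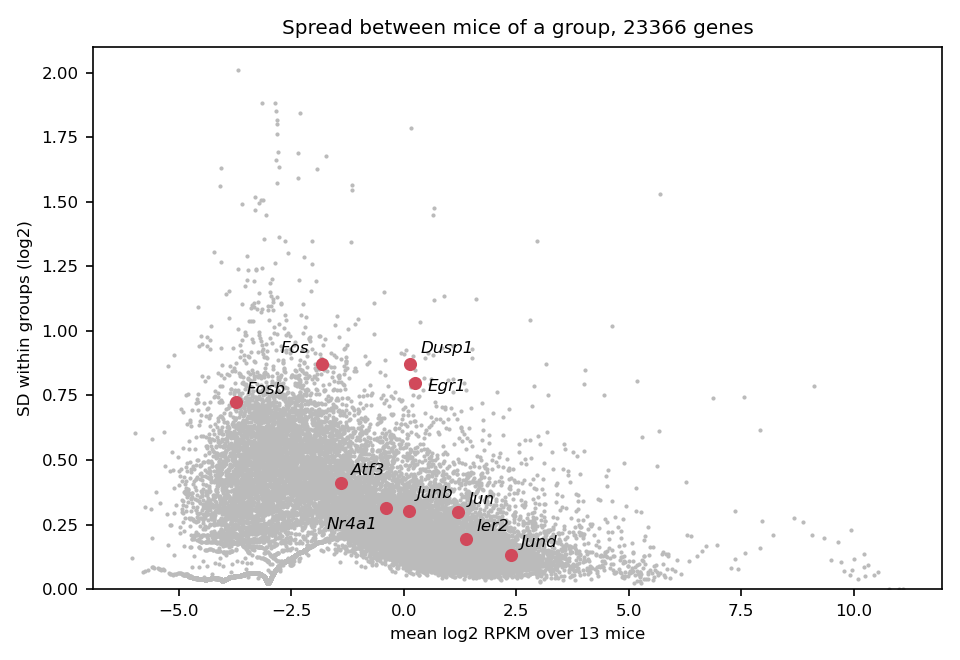
SD between mice within groups (y axis, log2) against the mean level over 13 mice (x axis, log2 RPKM), for the 23366 genes of the table (grey) and the 10 members (red). Dusp1, Egr1 and Fos lie above nearly all genes of their level, at SDs of 0.87, 0.80 and 0.87, while Jund, at 0.13, lies in the bulk.

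Whether the members went up and down together was asked with the group means taken out, over the 13 mice, for all 45 pairs. Of the 45 pairs, 39 were positively correlated, with a median Pearson's r of 0.41 and a range from -0.67 to 0.90. In an exact permutation test that exchanges mice within groups only, 2 of 45 pairs had a Benjamini-Hochberg adjusted p under 0.05 and 9 a raw p under 0.05. Of the pairs, 7 (15.6%) had an r above 0.7, against 6.63% of all pairs of genes with a mean above 0, whose median r was 0.02. The 2 sets are not alike in level, since Nr4a1, Atf3, Fos and Fosb have means below 0. Of the 7 pairs, only Egr1 with Dusp1 and Jun with Jund have both means above 0. Without old-OSKM mouse 4, the median r of the member pairs was 0.27 and 1 pair passed.

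Egr1 and Dusp1 formed the closest pair, with r = 0.904 (exact permutation p = 0.000434, adjusted p = 0.0195) and Spearman's rho = 0.890 (exact permutation p = 0.000998, adjusted p = 0.0225). Without young mouse 2 and old mouse 5, the mice farthest from the median of Egr1, r was 0.956. Without old-OSKM mouse 4, r was 0.899 (exact permutation p = 0.000868, adjusted p = 0.0391). Without the libraries numbered 641 to 643, r was 0.953, but the pair no longer passed the adjustment (exact permutation p = 0.00260, adjusted p = 0.117, with a smallest possible p of 0.000868 over 10 mice), and likewise without old-OSKM mice 1 and 4 (r = 0.891, exact permutation p = 0.00486, adjusted p = 0.109). Among all genes of the table, Dusp1 ranked at place 3 in likeness to Egr1, and Egr1 at place 5 in likeness to Dusp1. The mice with both genes low (young mice 1 and 2, old mice 4 and 5, old-OSKM mouse 3) and those with both high (young mice 3 and 4, old mice 2 and 3, old-OSKM mice 1, 2 and 4) came from all 3 groups, with old mouse 1 in between.

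Fosb and Jun were the second pair that passed, with r = 0.745 (exact permutation p = 0.00124, adjusted p = 0.0280) and rho = 0.803 (exact permutation p = 0.000694, adjusted p = 0.0225). That pair rested more on single mice, as r was 0.617 without old mouse 2 and old-OSKM mouse 4, and 0.607 without old-OSKM mouse 4 alone (exact permutation p = 0.00868, adjusted p = 0.165). Jun and Jund had r = 0.865 (exact permutation p = 0.00859, adjusted p = 0.0967) and Fos and Dusp1 r = 0.775 (exact permutation p = 0.0132, adjusted p = 0.119), neither of which passed the adjustment. The other pairs with an r above 0.7 were Fosb with Jund (0.77), Fosb with Ier2 (0.72) and Jund with Nr4a1 (0.72). Fosb was close to undetected, as given above, so that its pairs with Jun, Jund and Ier2 say less than those of the other members. Fos had an r near 0 with Fosb (-0.04), Jund (-0.09) and Ier2 (-0.03). Atf3 went with the other members least, with r = 0.06 against the mean of the other 9, and its lowest value was against Ier2 (r = -0.67, exact permutation p = 0.0667, adjusted p = 0.300).

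**Figure D4:**
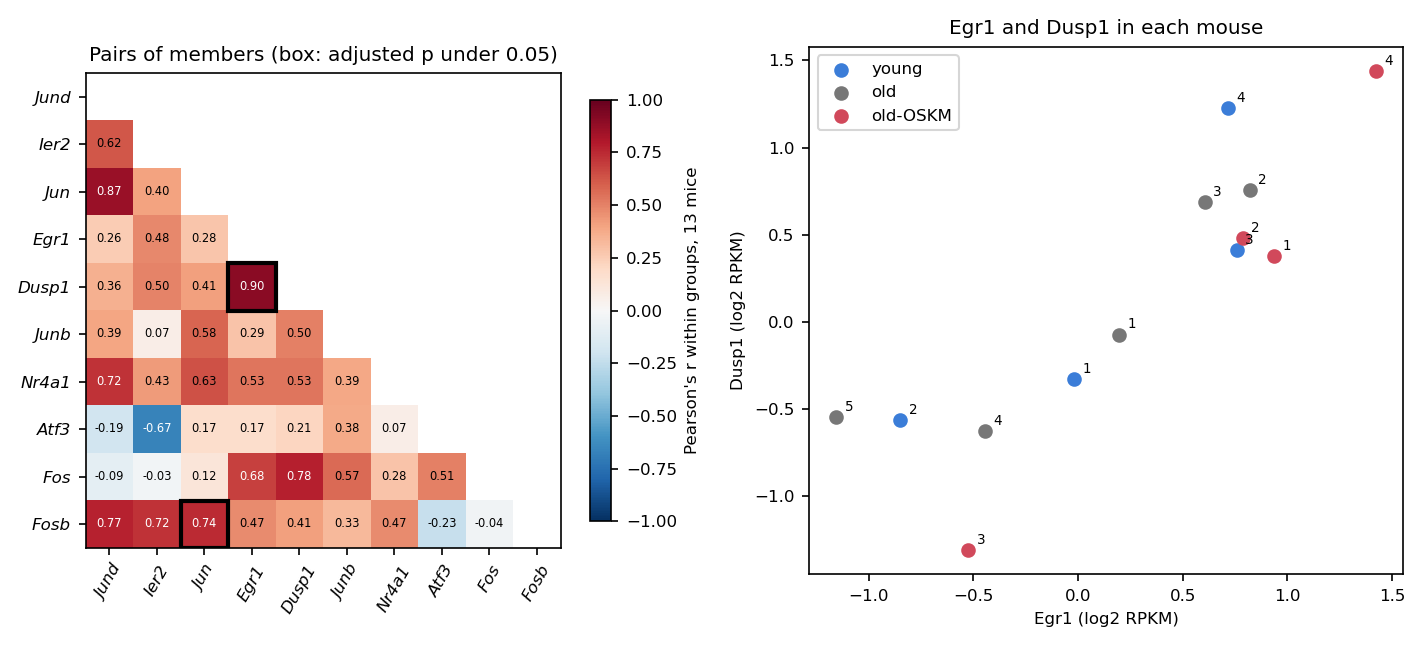
Left, Pearson's r of each pair of members within groups over 13 mice (colour and number, box where the adjusted p is under 0.05). Right, Dusp1 against Egr1 (log2 RPKM) in each mouse, numbered within its group. The boxed pairs are Egr1 with Dusp1 (0.90) and Fosb with Jun (0.74), and low and high mice of each group lie along a common trend on the right.

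To set the members beside the rest of the pathway, a member score was computed for each mouse as the mean of the 10 values after centring and scaling each gene over the 13 mice. The score was highest in old-OSKM mouse 4 (1.67), followed by young mouse 4 (0.68) and old-OSKM mouse 1 (0.47), and lowest in old mouse 5 (-1.09). The genes most like the score within groups were the transcript with Entrez identifier 78605 (r = 0.95), the histone H3.3 gene H3f3b (0.94), the ribosomal protein gene Rpl13a (0.93), the growth factor receptor Fgfr2 (0.93), Kifc3 (0.92), Hdac7 (0.92), Rhob (0.91), Ces1d (0.91), Slc25a4 (0.90) and Tmx3 (0.90). Rhob, an early-induced small GTPase, is the only one of these 10 that was among the wider immediate early lists.

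Those wider lists held 60 other genes in 4 groups, namely further AP-1 factors, further Egr, Nr4a and Klf factors, further early-induced genes and feedback inhibitors. Of the 60, 14 (23.3%) had an r above 0.7 with the member score, against 3.52% of all other genes. The median r was 0.48 for the 60 and -0.20 for all other genes, and the 2 sets were not matched for level. The early-induced genes contributed 8 of 24, the feedback inhibitors 3 of 12, the Egr, Nr4a and Klf factors 2 of 10 and the AP-1 factors 1 of 14. The closest after Rhob, named after their values were seen, were the Kruppel-like factor Klf6 (r = 0.85), the mRNA decay factor Zfp36l2 (0.84) and the growth arrest gene Gadd45b (0.84). Of 18 upstream genes (MAP kinases, serum response factor, CREB and their partners), 1 had an r above 0.7, and of 12 heat shock genes 0 did, with a median r of -0.22. For the mean level of each list, r with the score was 0.95 for the early-induced genes, 0.78 for the feedback inhibitors, 0.70 for the AP-1 factors, 0.68 for the Egr, Nr4a and Klf factors, -0.06 for the upstream genes and -0.26 for the heat shock genes.

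Much of this rested on old-OSKM mouse 4. With the score recomputed over the other 12 mice, 3 of 60 (5%) had an r above 0.7, against 1.16% of all other genes, again not matched for level. The mean level of the early-induced genes kept an r of 0.91, while the list of feedback inhibitors had 0.61, that of the Egr, Nr4a and Klf factors 0.77, that of the AP-1 factors 0.38, that of the upstream genes -0.44 and that of the heat shock genes -0.10. Of the 10 genes most like the score over 13 mice, 7 were also among the 10 most like it over the other 12 (Entrez identifier 78605, Rpl13a, H3f3b, Fgfr2, Kifc3, Hdac7 and Rhob, with r from 0.92 to 0.85), and Ces1d (0.81), Slc25a4 (0.80) and Tmx3 (0.79) came farther down.

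Between groups, few genes of the wider lists passed a test. Between old and young mice, 28 of 60 were higher in old mice, 2 with a raw p under 0.05 in that direction and 1 in the other, and 0 were called, while of all genes 54.4% were higher, 5.52% had such a p and 0.886% were called. Atf5, a stress-response factor of the ATF family, was higher in old mice by 0.43 ± 0.09 (limma adjusted p = 0.172). Its old mice (3.56 to 3.73 log2 RPKM) lay above the young ones (3.03 to 3.48), and 2.71% of all genes were free of overlap. Pim1, a survival kinase, was lower in old mice by 0.41 on the log2 scale (-0.41 ± 0.16, limma adjusted p = 0.768). Among the upstream genes, Mkl1, a coactivator of serum response factor, was higher in old mice by 0.30 ± 0.09 (limma adjusted p = 0.581).

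Between old-OSKM and old mice, 40 of 60 were higher in old-OSKM mice, against 36.9% of all genes. A raw p under 0.05 was reached by 4 of the 60 (6.67%), all higher, against 8.07% of all genes in either direction and 3.98% in this direction, and 0 were called, against 0.753% of all genes. Of the 12 feedback inhibitors, 11 were higher, 2 of them with a raw p under 0.05, with a median log2 difference of 0.20. Zfp36l1, an mRNA decay factor of this list, was higher by 0.26 ± 0.10 (limma adjusted p = 0.547). Of the 12 heat shock genes, 7 were higher and 5 lower, with a median log2 difference of 0.04, and 2 of the lower ones had a raw p under 0.05. Dnajb1, a heat shock cochaperone, was lower in old-OSKM mice (-0.31 ± 0.09, limma adjusted p = 0.547). The old-OSKM values of Dnajb1 (0.11 to 0.41) lay below those of the old mice (0.44 to 0.73). The groups were likewise free of overlap in 1.73% of all genes.

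Egr3, an early-induced relative of Egr1, was higher in old-OSKM than in old mice by 0.89 ± 0.30 (limma adjusted p = 0.547). Against young mice it was higher by 1.00 ± 0.32 (2.01-fold, limma adjusted p = 0.706), which made it the only one of the 60 called in any comparison. Egr3 stood at -2.34, -1.32, -2.65 and -2.67 log2 RPKM in the old-OSKM mice, and 3 of the 4 young mice and 3 of the 5 old mice lay at -3.47 to -3.37. These values lie close together at the low end of the table, and the upper control mice, at -2.69, were next to old-OSKM mouse 4 at -2.67, so that the groups were free of overlap by a margin of 0.02 only. In old-OSKM against young mice, 41 of 60 were higher, against 38.7% of all genes, and 3 had a raw p under 0.05 (5%, against 5.07% of all genes). Mapk8, which encodes the Jun kinase JNK1, was lower in old-OSKM than in young mice (-0.24 ± 0.08, limma adjusted p = 0.706), and Atf5 was higher (0.23 ± 0.10, limma adjusted p = 0.706).

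Markers of several pancreatic cell types moved in the direction of the members, and those of others did not. In bulk tissue, fewer cells of a type and less RNA per cell cannot be told apart. Of all genes, 36.9% were higher in old-OSKM than in old mice, 8.07% had a raw p under 0.05 and 0.753% were called. Of 7 fibroblast and stellate cell markers, 7 were higher in old-OSKM than in old mice, 4 with a raw p under 0.05 and 2 called. Their summed level was 26.2 to 72.8 RPKM in old-OSKM, 20.1 to 26.0 in old and 26.9 to 53.8 in young mice. Of 7 macrophage markers, 7 were higher in old-OSKM than in old mice, 6 with a raw p under 0.05 and 1 called, with a summed level of 11.9 to 33.5 RPKM in old-OSKM and 8.24 to 14.1 in old mice. Of 5 adipocyte markers, 5 were higher, 3 with a raw p under 0.05 and 1 called (3.34 to 13.4 against 2.89 to 5.26 RPKM). All 6 endothelial markers were higher, none with a raw p under 0.05 (11.2 to 22.9 against 9.66 to 12.2 RPKM), and 7 of 7 beta cell markers were lower, 1 with a raw p under 0.05. All 5 T cell markers and all 6 B and plasma cell markers were higher, and 1 of 4 neutrophil markers, none with a raw p under 0.05. In the remaining lists, 3 of 7 duct, 2 of 5 islet alpha and delta and 3 of 5 smooth muscle and pericyte markers were higher. So were 3 of 5 erythroid and blood, 5 of 5 proliferation and 5 of 12 acinar markers. Of these lists only the acinar had a raw p under 0.05, in 1 marker that was lower. Acinar markers were lower in 5 of 12 cases, as Ctrb1 and Cela2a, with the same value in every mouse, could not differ between groups. Between old and young mice, where 8 of 10 members had a lower mean, 7 of 7 fibroblast and stellate markers were lower in old mice, 4 with a raw p under 0.05 and 2 called, and 6 of 6 endothelial markers were lower, 1 with a raw p under 0.05. The lymphocyte markers went the other way, as 6 of 6 B and plasma cell markers were higher in old mice, 2 with a raw p under 0.05 and 1 called, and 5 of 5 T cell markers were higher, none with a raw p under 0.05. Lower in old mice were also 5 of 5 smooth muscle and pericyte, 5 of 5 adipocyte and 5 of 5 erythroid and blood markers. So were 6 of 7 macrophage, 6 of 7 duct, 4 of 5 islet alpha and delta and 4 of 5 proliferation markers. Higher were 5 of 7 beta cell and 3 of 4 neutrophil markers. None of these lists had a raw p under 0.05, while 6 of 12 acinar markers were lower, 1 with such a p.

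The mice that led in the members also led in several marker lists and lay farthest from the other libraries. Old-OSKM mouse 4, young mouse 4 and old-OSKM mouse 1, in the order of their score, were the 3 libraries with the largest median distance from the median mouse (0.277, 0.112 and 0.105 log2 units), and they had the 3 lowest median correlations with the others (0.895, 0.962 and 0.960). The summed fibroblast and stellate level was highest in old-OSKM mouse 4 (72.8 RPKM), young mouse 4 (53.8) and old-OSKM mouse 1 (40.9), in the same order as the member score, and the endothelial level was highest in old-OSKM mouse 4 (22.9) and young mouse 4 (18.7). Old-OSKM mouse 4 also led in islet alpha and delta markers (70.5 RPKM), in beta cell markers (426) and in erythroid and blood markers (104), so that its lead was not limited to stroma. As a description over the 13 mice, which share their libraries and the single extreme of old-OSKM mouse 4, the correlation of the member score within groups was 0.76 with the mean fibroblast and stellate level, 0.76 with the endothelial and 0.76 with the smooth muscle and pericyte level. It was 0.67 with the islet alpha and delta, 0.56 with the adipocyte, 0.47 with the duct, 0.42 with the erythroid and blood, 0.36 with the macrophage, 0.30 with the beta cell, 0.12 with the T cell, -0.05 with the B and plasma cell, -0.10 with the acinar and the proliferation and -0.61 with the neutrophil level. Without old-OSKM mouse 4 it was 0.53 with the fibroblast and stellate, 0.50 with the endothelial, 0.54 with the smooth muscle and pericyte, 0.38 with the islet alpha and delta, 0.40 with the adipocyte, 0.24 with the macrophage, -0.17 with the duct, -0.31 with the beta cell, -0.33 with the erythroid and blood and -0.58 with the neutrophil level. It was then 0.265 with the T cell, 0.0041 with the B and plasma cell, 0.14 with the acinar and 0.23 with the proliferation level. The macrophage level was highest in old-OSKM mouse 1 (33.5), which led in Fos and Atf3. The part of these cells and of the distance between libraries in the members' levels was not tested.

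**Figure D5:**
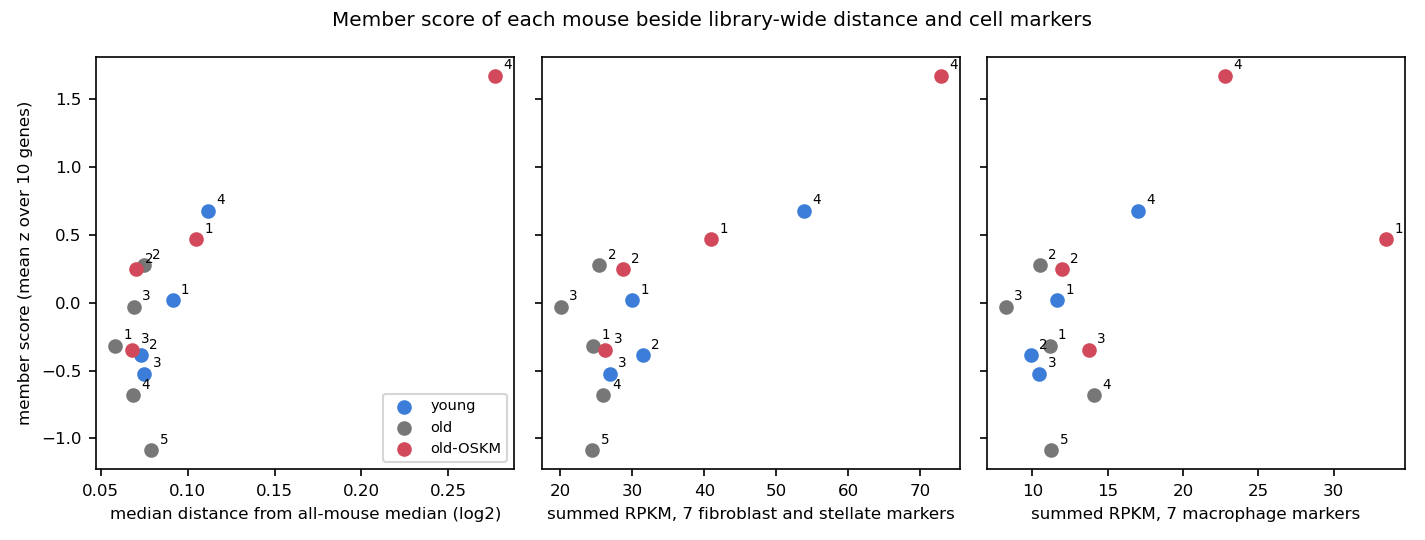
Member score of each mouse (y axis, mean of scaled values over 10 members) against the median distance of its library from the median mouse (left), the summed RPKM of 7 fibroblast and stellate markers (middle) and of 7 macrophage markers (right), numbered within groups. Old-OSKM mouse 4 is at the far right of the left and middle panels (0.277 and 72.8 RPKM) and at the top (1.67), and old-OSKM mouse 1 is at the far right of the macrophage panel.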

How the data were processed

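RNA of whole pancreas, depleted of ribosomal RNA, was sequenced with 1 library per mouse. Per the labels and the study's methods, the authors aligned reads with STAR 2.3.0e to mm10, estimated transcript levels with Casper, summed them per Entrez gene, took logarithms and quantile normalised them. The deposited values are log2 RPKM and were used as they are, with no pseudocount and no filter. Sorted values of different mice differed by at most 0.0116. Read counts are not part of the values, and a correction for total reads that the study describes was not applied here. Symbols came from RefSeq (GRCm38.p6), which named 23273 of 23366 genes.

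Groups came from the labels. Replicate numbers follow accession order and pair nothing. Differences were fitted with limma 3.58.1 in R 4.3.3 over all 13 mice with group as the only term. Genes with a fold over 1.5 and a raw p under 0.01 were called, and p-values were adjusted by Benjamini-Hochberg over all 23366 genes. The scripts were tested on simulated data. Single-gene and correlation tests were exact, two-sided permutation tests, the latter within groups (smallest possible p 1.447e-05), adjusted over 45 pairs. Alternatives were pseudocounts of 1 and 0.1 on the RPKM scale, only genes with a mean log2 RPKM above 0, sample medians subtracted, only the 2 groups compared, limma with trend and robust settings, samples 641 to 643 as a covariate or left out, and each mouse left out. Leaving out old-OSKM mice 1 and 4, the score without old-OSKM mouse 4, counting the members with a higher mean, and setting the spread beside genes of like level were added after the data were seen.

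The members and lists were chosen with earlier results of these data known. All 10 members are given. Of the other pathway genes, the 3 with the smallest p in each comparison and any called are named, and the 10 genes most like the member score. Ly6g and Trac, of the marker lists, were not analysed here. Figures were drawn with matplotlib 3.10.9 in Python 3.11.15.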

Additional observations from a re-analysis of the deposited data

Results flagged for a closer look

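Jun in old-OSKM mouse 4 stood at 1.89 log2 RPKM, set off from the other 3 old-OSKM mice (1.10 to 1.23) by 0.834 of the range of the group. It was the only value set off in this way in 30 sets of values, 10 members in 3 groups, where chance alone sets off about 1 in 20. The library of this mouse stood apart from the others over all genes as well, as described above, and without it Jun differed by 0.12 ± 0.16 on the log2 scale between old-OSKM and old mice, against 0.30 ± 0.19 with it.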

How the results depend on the processing

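With 4 or 5 mice a group, the intervals of Fos, Fosb, Egr1 and Dusp1 were wide (-1.21 to 1.33 on the log2 scale for Dusp1 in old-OSKM minus young), and depth, not being in the values, sets a further limit that was not measured. Members with a raw p under 0.05 between old-OSKM and old mice numbered 1 with only genes above 0, with only these 2 groups, with samples 641 to 643 as a covariate and without them, 0 without old-OSKM mice 1 and 4, and 0 to 4 with 1 mouse left out (0 without old mouse 1 or 5, 4 without old-OSKM mouse 3), where 0 to 1 were called. Between old and young they numbered 0 to 1 with 1 mouse left out, and between old-OSKM and young 1 without samples 641 to 643 and 0 to 2 with 1 mouse left out. Of all 23366 genes, 3849 had such a p in old-OSKM minus old without old-OSKM mouse 3, against 1885 with all mice. Members with a higher mean in old than in young mice numbered 1 with a pseudocount of 1, 0 of 6 tested with only genes above 0, 4 without samples 641 to 643 and 1 to 5 with 1 mouse left out. With only genes above 0, which tests 6 members, 6 were higher in old-OSKM than in old and 5 than in young mice. Correlated pairs numbered 4 with group means left in, 0 without samples 641 to 643, 0 without old-OSKM mice 1 and 4, and 1 to 3 with 1 mouse left out. The median SD of the members within groups, 0.362, was 0.148 with a pseudocount of 1 and 0.310 with 0.1, 0.300 with only genes above 0, 0.306 without old-OSKM mice 1 and 4, and 0.316 to 0.381 with 1 mouse left out.

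Single members changed direction where their difference was near 0, none of them called. With a pseudocount of 1, Fos in old minus young was -0.0072. Without samples 641 to 643, Fosb in old-OSKM minus old was -0.0092, Jun in old-OSKM minus young -0.0969 (-0.0853 with them as a covariate), and Egr1 and Dusp1 in old minus young 0.73 and 0.63. Without old-OSKM mice 1 and 4, old-OSKM minus old was -0.20 for Fosb and -0.45 for Dusp1, and old-OSKM minus young -0.19 for Jun, -0.0193 for Egr1 and -0.60 for Dusp1. With 1 mouse left out, old minus young ranged from -0.23 to 0.52 for Fos, -0.24 to 0.0966 for Junb, -0.48 to 0.14 for Egr1 and -0.40 to 0.20 for Dusp1. Old-OSKM minus old ranged from -0.18 to 0.50 for Fosb, -0.0034 to 0.21 for Ier2, 0.30 to 0.82 for Atf3 and -0.19 to 0.73 for Dusp1. Old-OSKM minus young ranged from -0.15 to 0.12 for Jun, -0.0137 to 0.13 for Jund, -0.18 to 0.0371 for Ier2 and -0.34 to 0.58 for Dusp1. The cause of these changes was not tested. Of the other alternatives, 247 values of single members kept their direction and their side of the threshold and 11 changed direction, and with 1 mouse left out 366 kept both, 23 changed direction and 1 became called.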

Other observations

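The genes most like a single member within groups, by the same measure over the 13 mice among genes with a mean log2 RPKM above 0, were named after their values were seen. Beside Dusp1, those most like Egr1 were Tinagl1 (r = 0.91), Rsbn1l (0.84), Rrp1 (0.82), the homeobox gene Hhex (0.81) and Ces1d (0.81), with Myc, an early-induced growth factor target and part of the OSKM cassette, at 0.79. Those most like Dusp1 were Enc1 (0.93), Rsbn1l (0.92), Egr1 (0.90), Hhex (0.90), Mcc (0.90), the membrane protein Tm4sf4 (0.89), Tinagl1 (0.88) and the shear-responsive factor Klf2 (0.88). Those most like Fos included the smooth muscle genes Acta2 (0.85) and Tagln (0.77), the Notch effector Rbpj (0.78), Dusp1 (0.78) and the mRNA decay factor Zfp36 (0.77).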
